A study of Mus musculus with 6 samples.

Results

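The question was how far livers of mice that received CCl4 and no JT003 differ among themselves. 1 library of CCl4-treated liver was set against the rest of a larger CCl4 total. The authors used this total in their table of CCl4 and CCl4 plus JT003. That it holds only CCl4-treated livers without JT003 is taken from the name of its column. The rest was obtained gene by gene, by subtracting the expected count of the CCl4 library from the pooled CCl4 column and setting negative differences to 0. Genes with at least 10 counts in either column were compared, which were 14547 of the 18786 genes listed. The study treated male C57BL/6J mice of 6 to 8 weeks with CCl4, a hepatotoxin that causes liver fibrosis, and tested JT003, a peptide agonist of the adiponectin receptors AdipoR1 and AdipoR2. CCl4 was injected intraperitoneally as 20% in corn oil at 5 ml/kg every 3 days for 6 weeks, and controls received corn oil. The treated group were CCl4 mice that received JT003 for 3 weeks. Groups held 6 mice, fasted for 8 h before sacrifice. Whether a library holds RNA of 1 mouse or of several is not stated in the sources used here.

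The rounded expected counts, which are the authors' estimates of the reads of each gene, summed to 19409752 in corn oil, 20156841 in the CCl4 library, 39781089 in the rest and 19374236 in CCl4 plus JT003. The pooled column summed to 2.97 times the CCl4 library, and 24 genes had a lower value in the pool than in the library, by at most 0.99 counts. That the column is a pool holding this library is inferred from these values. The libraries behind the rest are not named, so the number of livers in it and their spread are unknown. With 1 library per condition deposited on its own there was no replicate check, and each test compared the reads of 2 columns, not conditions or mice. All levels are scaled cpm, which are counts over the size of their column after TMM scaling of the 4 columns, whose factors were 0.865 in corn oil, 1.02 in the CCl4 library, 1.07 in the rest and 1.07 in CCl4 plus JT003. Both CCl4 columns had the markers of liver and more collagen RNA than corn oil. Alb, the albumin gene, held the most reads in each column, 7.55% in the CCl4 library and 8.51% in the rest. Col1a1, which encodes a chain of fibrillar collagen, was at 13.8 cpm in corn oil, 121 in the CCl4 library, 135 in the rest and 42.4 in CCl4 plus JT003.

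CCl4 is converted by cytochrome P450 enzymes, mainly Cyp2e1 of the hepatocytes around the central vein, into radicals that kill these cells, and repeated doses lead to inflammation, regeneration and scar formation. In injury and inflammation, hepatocytes make acute phase proteins, while macrophages and neutrophils clear dead cells, stellate cells deposit collagen and surviving hepatocytes divide. These programs follow one another after each dose, and the metallothioneins, which bind zinc and copper, are among the liver genes that answer to metals and glucocorticoids.

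Of the 14547 genes, 303 (2.08%) were called, which took an adjusted p under 0.001 and a log2 ratio of 1 or more in absolute value. Of these, 260 (1.79%) were higher in the rest and 43 (0.296%) were lower, so that 85.8% of the calls were higher. This direction depended on the fold threshold, since without it 1482 genes were higher and 2179 lower, 40.5% of the calls being higher. Each log2 ratio is the rest over the CCl4 library, with a prior count of 2 scaled to the size of the column. Its 95% Clopper-Pearson interval leaves out the prior count and covers counting error only, since no molecular identifiers are stated. Over all genes the median of the log2 ratio was 0.02, and from the 5th to the 95th percentile the ratios ran from -0.50 to 0.99. The ratio was above 0 in 7629 genes (52.4%) and below 0 in 6918. Next to the fold threshold, Cnbd2 at 1.002 and Cyb561 at 1.009 were just inside, and Thbs2 at 0.999 and Ppm1h at 0.998 just outside. By the same rule, 1261 of 13602 genes (9.27%) differed between the CCl4 library and corn oil, 831 (6.11%) higher and 430 (3.16%) lower in the library. Between CCl4 plus JT003 and the CCl4 library 780 of 13785 (5.66%) did, 334 (2.42%) higher and 446 (3.24%) lower in CCl4 plus JT003. These comparisons share the CCl4 library with the first, and the rest has 1.97 times the reads of that library, which lets smaller differences pass the test. The depth of the rest also acts through the count minimum. Of the 14547 genes, 1261 reached 10 counts only in the rest and 25 only in the library, and 48 of the former were called higher and 6 of the latter lower. The fold threshold alone was passed by 808 genes (5.55%) in the first comparison, 714 (4.91%) higher and 94 (0.646%) lower in the rest. For the library over corn oil these were 1860 (13.7%), with 1192 (8.76%) higher and 668 (4.91%) lower, and for CCl4 plus JT003 over the library 1224 (8.88%), with 639 (4.64%) and 585 (4.24%). Where the higher column held 100 counts or more, the shares past the fold threshold were 2.08% (233 of 11202), 8.65% (831 of 9612) and 5.41% (531 of 9807).

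The test counts no variation between mice, which these files cannot give. With a coefficient of variation of 0.2 between livers assumed in the edgeR exact test, 22 genes were called, 21 higher and 1 lower in the rest. Among them were Mt1, Mt2, Lcn2, Hbb-bs, Prtn3 and Marco, and the lower one was Cyp2a4. With an assumed coefficient of 0.4, 0 genes were called. In that edgeR exact test 149 of 14547 genes had an unadjusted p under 0.05, a share below 0.05. The calls are therefore differences between these 2 columns.

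**Figure D1:**
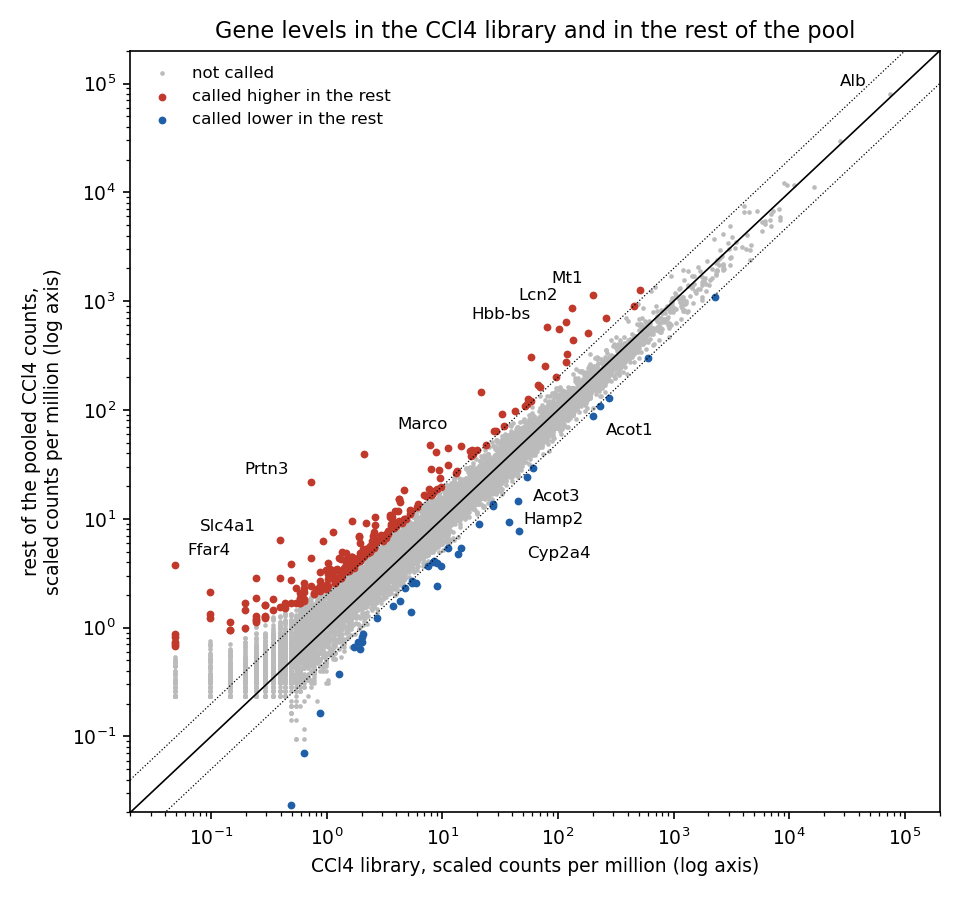
Level of each gene in the CCl4 library (x axis) and in the rest of the pooled CCl4 counts (y axis), in scaled cpm on log axes. Points are the 14486 genes with reads in both columns (61 genes at 0 in 1 column are not drawn), coloured where they were among the 260 called higher or the 43 called lower in the rest.

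Named first are the 15 genes called highest by log2 ratio and the 15 called lowest, where 1 column held 100 counts or more. First among the higher ones, Tgtp1 (gene ID 21822), an interferon-inducible GTPase, had 0 reads in the CCl4 library and 180 in the rest, at least 29.0-fold higher at a floor of 3 counts. In corn oil and CCl4 plus JT003 it had 55 and 83 reads. Its near-identical neighbour Tgtp2 had 47 reads in the library and 96 in the rest, with a log2 ratio of -0.02 (-0.54 to 0.52). Expected counts split shared reads between such copies, so the difference of Tgtp1 is uncertain. Ffar4 (107221), a receptor for long-chain fatty acids, had 3, 1, 159 and 3 reads in corn oil, the CCl4 library, the rest and CCl4 plus JT003, with a log2 ratio of 5.08 (3.76 to 11.58).

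Prtn3 (19152), a serine protease stored in neutrophil granules, was at 1.13 cpm in corn oil, 0.732 in the CCl4 library, 21.8 in the rest and 5.67 in CCl4 plus JT003. The log2 ratio of Prtn3 was 4.78 (4.17 to 5.74), a 27.5-fold difference, with an adjusted p of 9.45e-132 by the exact conditional binomial test with Benjamini-Hochberg adjustment. The CCl4 library was the lowest of the 4 columns and lay close to corn oil. Sult1e1 (20860), which sulfates estrogens, had 5 reads in the library and 122 in the rest (log2 ratio 3.26, 2.30 to 5.21), against 2 in corn oil and 5 in CCl4 plus JT003. Lcn2 (16819), an iron-siderophore binding protein of the acute phase, was at 12.4 cpm in corn oil, 132 in the CCl4 library, 866 in the rest and 471 in CCl4 plus JT003. Here all 3 CCl4-treated columns were above corn oil, and the rest exceeded the library by a log2 ratio of 2.71 (2.65 to 2.77). Marco (17167), a scavenger receptor of macrophages, was at 2.44 cpm in corn oil, 7.85 in the CCl4 library, 47.3 in the rest and 60.6 in CCl4 plus JT003, so that the library was the lowest of the 3 CCl4-treated columns, and the log2 ratio was 2.58 (2.36 to 2.83).

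Slc4a1, Hbb-bs, Hbb-bt, Fam107a, Lrtm1, Myom3 and Mt1 were also among the 15 highest. For Fam107a (268709), an actin-binding protein, the reads were 22 in corn oil, 10 in the library, 163 in the rest and 16 in CCl4 plus JT003 (log2 ratio 2.82, 2.06 to 4.06). Lrtm1 (319476) had 35, 23, 318 and 33 reads in the same order (log2 ratio 2.67, 2.13 to 3.42). Myom3 (242702), a myomesin of the muscle sarcomere, had 8, 8, 120 and 26 (log2 ratio 2.67, 1.83 to 4.10). In each of these 3 genes the rest was the highest column. 14 of the genes called higher had no read in the CCl4 library and 12 had 1 to 3 reads.

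On the lower side, Cyp2a4 (13086), a steroid hydroxylase that female mouse liver expresses at higher levels, was at 0 cpm in corn oil, 46.0 in the CCl4 library, 7.73 in the rest and 11.2 in CCl4 plus JT003. The library thus had the highest level of the 4 columns, 5.91-fold that of the rest (log2 ratio -2.56, -2.76 to -2.39), with an adjusted p of 1.43e-200 by the exact conditional binomial test with Benjamini-Hochberg adjustment. Its close paralog Cyp2a5 (13087), a coumarin hydroxylase, was at 262 cpm in corn oil, 54.1 in the CCl4 library, 24.1 in the rest and 212 in CCl4 plus JT003. Both paralogs were lower in the rest, Cyp2a5 by a log2 ratio of -1.16 (-1.29 to -1.04), but the split of reads between them is uncertain. Cyp2b10 (13088), an enzyme induced through the receptor CAR, was at 0.238 cpm in corn oil, 20.5 in the CCl4 library, 8.88 in the rest and 5.23 in CCl4 plus JT003, with a log2 ratio of -1.20 (-1.41 to -1.01). Cyp2c38 (13097), of the same superfamily, was at 42.1 cpm in corn oil, 9.76 in the CCl4 library, 3.68 in the rest and 12.6 in CCl4 plus JT003. It was lower in the rest by a log2 ratio of -1.39 (-1.72 to -1.10), and all 3 CCl4-treated columns were below corn oil.

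Hamp2 (66438), a hepcidin, was at 8.22 cpm in corn oil, 37.5 in the CCl4 library, 9.35 in the rest and 62.0 in CCl4 plus JT003, and the rest was close to corn oil (log2 ratio against the library -1.99, -2.18 to -1.83). Hamp (84506), the hepcidin that controls iron export, was at 512 cpm in corn oil, 397 in the CCl4 library, 212 in the rest and 1294 in CCl4 plus JT003, and with a log2 ratio of -0.90 (-0.95 to -0.86) it was not called. Reads shared by these paralogs make both values uncertain. Acot3 (171281), a peroxisomal acyl-CoA thioesterase, was at 21.0 cpm in corn oil, 45.2 in the CCl4 library, 14.5 in the rest and 125 in CCl4 plus JT003. The rest was the lowest of the 4 columns, with a log2 ratio of -1.64 (-1.79 to -1.50). Its cytosolic relative Acot1 (26897) was at 304 cpm in corn oil, 202 in the CCl4 library, 87.0 in the rest and 242 in CCl4 plus JT003, where the rest was again lowest (log2 ratio -1.22, -1.28 to -1.15), with the same doubt about shared reads. Socs2 (216233), an inhibitor of growth hormone signaling that growth hormone itself induces through STAT5, was at 31.8 cpm in corn oil, 14.4 in the CCl4 library, 5.35 in the rest and 63.6 in CCl4 plus JT003. The rest was below the other 3 columns, and the log2 ratio was -1.42 (-1.68 to -1.17). G0s2 (14373), an inhibitor of adipose triglyceride lipase, was at 343 cpm in corn oil, 276 in the CCl4 library, 129 in the rest and 252 in CCl4 plus JT003. Only the rest stood apart among its 4 values (log2 ratio -1.09, -1.15 to -1.04).

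The remaining genes of the 15 lowest were Gal3st1, Serpinb1a, Atp2b2, Marcksl1-ps4, Arhgef39 and Osgin1. Serpinb1a (66222), an inhibitor of neutrophil proteases, had 101 reads in corn oil, 184 in the library, 103 in the rest and 30 in CCl4 plus JT003 (log2 ratio -1.86, -2.25 to -1.53). Gal3st1 (53897), which makes sulfatides, had 62, 110, 59 and 60 in the same order (log2 ratio -1.90, -2.43 to -1.48). Atp2b2 (11941), a calcium pump of the plasma membrane, was at 1.31 cpm in corn oil, 13.5 in the CCl4 library, 4.78 in the rest and 2.52 in CCl4 plus JT003, and the log2 ratio was -1.49 (-1.77 to -1.23). Arhgef39 (230098), a guanine nucleotide exchange factor, was at 0.119 cpm in corn oil, 8.98 in the CCl4 library, 3.93 in the rest and 0.775 in CCl4 plus JT003, low in corn oil and in CCl4 plus JT003 (log2 ratio -1.18, -1.50 to -0.88). Osgin1 (71839), a regulator of growth and cell death that NRF2 controls, was at 107 cpm in corn oil, 232 in the CCl4 library, 108 in the rest and 194 in CCl4 plus JT003 (log2 ratio -1.10, -1.16 to -1.04). The pseudogene Marcksl1-ps4 (111002) had 127, 122, 109 and 291 reads (log2 ratio -1.19, -1.60 to -0.83), and its reads cannot be told from those of its parent gene with certainty. Acaa1b (235674), a peroxisomal thiolase chosen after its values were seen, had the highest level of the 43 genes, at 3343 cpm in corn oil, 2299 in the CCl4 library, 1085 in the rest and 2541 in CCl4 plus JT003 (log2 ratio -1.08, -1.10 to -1.06). 3 small nucleolar RNA genes of the Rnu3b family had 18 reads each in the library and 0 in the rest, while Rnu3b4 of the same family had 0 and 67. Shared reads among these copies make each value uncertain.

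The 10 genes with the largest absolute difference in cpm were liver products of high level, and none of them passed the fold threshold. Alb (11657) was at 66451 cpm in corn oil, 74205 in the CCl4 library, 79753 in the rest and 71523 in CCl4 plus JT003, a log2 ratio of 0.10. Serpina1e (20704), an alpha-1-antitrypsin, was at 15246 cpm in corn oil, 4040 in the CCl4 library, 7550 in the rest and 2705 in CCl4 plus JT003 (log2 ratio 0.90, 0.89 to 0.91). Its paralog Serpina1c (20702) went the other way, at 9281 cpm in corn oil, 8307 in the CCl4 library, 5976 in the rest and 6958 in CCl4 plus JT003 (log2 ratio -0.48), and these copies share reads. 4 plasma proteins of the acute phase were higher in the rest. Hpx (15458), which binds heme, was at 5331 cpm in corn oil, 9003 in the CCl4 library, 12093 in the rest and 9492 in CCl4 plus JT003 (log2 ratio 0.43), and Hp (15439), which binds hemoglobin, at 4280 cpm in corn oil, 4097 in the CCl4 library, 6556 in the rest and 7646 in CCl4 plus JT003 (0.68). The fibrinogen chain Fga (14161) was at 3840 cpm in corn oil, 4522 in the CCl4 library, 6636 in the rest and 3880 in CCl4 plus JT003 (log2 ratio 0.55), and complement C3 (12266) at 5977 cpm in corn oil, 9575 in the CCl4 library, 11640 in the rest and 8973 in CCl4 plus JT003 (0.28). Apoe (11816), the lipoprotein ligand, was at 20940 cpm in corn oil, 16416 in the CCl4 library, 11303 in the rest and 18340 in CCl4 plus JT003 (log2 ratio -0.54). Scd1 (20249), a stearoyl-CoA desaturase, was at 4420 cpm in corn oil, 8378 in the CCl4 library, 5554 in the rest and 4389 in CCl4 plus JT003 (log2 ratio -0.59). Gstm1 (14862), a glutathione transferase with close paralogs, was at 1550 cpm in corn oil, 4532 in the CCl4 library, 2378 in the rest and 2096 in CCl4 plus JT003 (log2 ratio -0.93), and the last 3 genes were lower in the rest. Rnase4 (58809), a secreted ribonuclease chosen after its values were seen, had the highest level in the rest of all genes called higher. It was at 796 cpm in corn oil, 512 in the CCl4 library, 1259 in the rest and 1262 in CCl4 plus JT003 (log2 ratio 1.30, 1.27 to 1.33), lowest in the CCl4 library.

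Many metallothionein and acute phase genes were higher in the rest. Of the 21 genes of this list, 9 (42.9%) were called higher and 0 lower, with a median log2 ratio of 0.71. Over all genes 1.79% were called higher and 0.296% lower, and the median was 0.02. Counts of calls in the lists that follow stand beside these same shares. Mt1 (17748) was at 649 cpm in corn oil, 200 in the CCl4 library, 1127 in the rest and 1067 in CCl4 plus JT003, and Mt2 (17750) at 286 cpm in corn oil, 117 in the CCl4 library, 648 in the rest and 445 in CCl4 plus JT003. In both genes the CCl4 library was the lowest column and the rest the highest, with log2 ratios of 2.49 (2.45 to 2.54) and 2.47 (2.41 to 2.53). The serum amyloid gene Saa1 (20208) was at 284 cpm in corn oil, 259 in the CCl4 library, 707 in the rest and 653 in CCl4 plus JT003 (log2 ratio 1.45, 1.41 to 1.49). Saa2 (20209) was at 135 cpm in the library and 436 in the rest (log2 ratio 1.69), and Saa4 (20211) at 118 and 277 (1.23). Saa3 (20210), which macrophages also make, had 436 and 847 reads and was not called (log2 ratio -0.09). The orosomucoids Orm2 (18406, 1363 and 7198 reads, log2 ratio 1.35) and Orm3 (18407, 39 and 297 reads, 1.84) and the Saa genes are families of near-identical copies, and each member's own value is uncertain. Apcs (20219), serum amyloid P, was at 108 cpm in corn oil, 119 in the CCl4 library, 327 in the rest and 217 in CCl4 plus JT003 (log2 ratio 1.46, 1.40 to 1.52). Among the 12 genes not called, Serpina3n (20716), a serine protease inhibitor of the acute phase, was at 691 cpm in the library and 1345 in the rest (log2 ratio 0.96), and the C-reactive protein gene Crp (12944) at 252 and 245 (-0.04). Hamp, also of this list, had its lowest ratio, -0.90. The summed level of the list was 25479 cpm in corn oil, 29749 in the library, 45819 in the rest and 37115 in CCl4 plus JT003.

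Because Mt1 and Mt2 differed together and lie side by side, the 250 bases before their starts are shown, from RefSeq promoters of the build GRCm38.p6, matched by symbol. Mt1 is at chr8:94178839-94179088 and Mt2 at chr8:94172368-94172617, both on the plus strand. Capitals mark the core that the metal-responsive factor MTF1 is known to bind, TGCACNC or TGCGCNC on either strand, which 7032 of 32851 promoters (21.4%) held. Within these 250 bases 1 match was found in Mt1 and 3 in Mt2, and 4 of the 18 members of the list with a promoter held a match. Bases outside this window were not searched, so the counts do not compare the whole promoters of the 2 genes. A match is a run of letters and does not show binding.
Mt1: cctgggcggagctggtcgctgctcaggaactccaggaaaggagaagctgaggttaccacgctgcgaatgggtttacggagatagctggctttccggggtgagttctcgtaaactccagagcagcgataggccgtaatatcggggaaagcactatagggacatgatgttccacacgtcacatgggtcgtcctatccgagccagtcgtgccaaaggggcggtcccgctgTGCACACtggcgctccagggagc
Mt2: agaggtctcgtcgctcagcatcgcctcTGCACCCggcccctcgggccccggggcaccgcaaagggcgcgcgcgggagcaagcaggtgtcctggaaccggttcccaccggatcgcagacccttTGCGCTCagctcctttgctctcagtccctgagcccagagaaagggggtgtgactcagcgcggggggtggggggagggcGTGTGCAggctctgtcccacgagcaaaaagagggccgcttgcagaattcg

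Most red blood cell genes were higher in the rest, and in bulk RNA more cells of a type and more RNA per cell cannot be told apart. Of 10 red blood cell genes compared, 8 (80%, against 1.79% of all genes) were called higher and 0 lower. The median log2 ratio was 2.60 (2.41 with the genes at 0 in the library set to their bound). The beta globin Hbb-bs (100503605) was at 197 cpm in corn oil, 79.8 in the CCl4 library, 580 in the rest and 87.8 in CCl4 plus JT003. The rest was far above the other 3 columns, with a log2 ratio of 2.86 (2.79 to 2.93). Hbb-bt (101488143), the other adult beta globin, was at 52.8 cpm in corn oil, 21.4 in the CCl4 library, 145 in the rest and 19.1 in CCl4 plus JT003 (log2 ratio 2.75). The alpha globins Hba-a1 (15122) and Hba-a2 (110257) were at 102 and 58.1 cpm in the library and 557 and 304 in the rest (log2 ratios 2.44 and 2.39), and near-identical globin copies share reads. Slc4a1 (20533), the anion exchanger of the red cell membrane, had 10, 8, 273 and 8 reads in corn oil, the library, the rest and CCl4 plus JT003 (log2 ratio 3.84, 3.04 to 5.27). The list also held genes of red cell precursors. Ahsp (170812), which stabilizes alpha globin, had 0 reads in the library and 30 in the rest, at least 4.83-fold higher. Alas2 (11656), of erythroid heme synthesis, was at 83.8 cpm in the library and 93.8 in the rest (log2 ratio 0.16, 0.08 to 0.25) and was not called. The red blood cell genes summed to 692 cpm in corn oil, 347 in the library, 1690 in the rest and 341 in CCl4 plus JT003. Their part in the other differences was not tested.

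Neutrophil markers had a median log2 ratio of 1.43, and 5 of 13 (38.5%, against 1.79% of all genes) were called higher and 0 lower. Over the 5 members with 100 or more counts the median was 0.72, and 2 were called. The calgranulins S100a8 (20201) and S100a9 (20202), cytosolic proteins that neutrophils hold in quantity, had 21 and 39 reads in the library and 167 and 291 in the rest, with log2 ratios of 1.88 (1.28 to 2.67) and 1.82 (1.36 to 2.37). Mpo (17523), the myeloperoxidase of the granules, had 3, 1, 37 and 4 reads in the 4 columns (log2 ratio 3.06, 1.59 to 9.50). Retnlg (245195, 5 and 50 reads, log2 ratio 2.01) and the granule protein Ngp (18054, 12 and 88 reads, 1.72) were the other members called. Ly6g (546644), which defines mouse neutrophils, had 80 and 130 reads (log2 ratio -0.34, -0.76 to 0.07), and Cxcr2 (12765), the chemokine receptor with the most reads of the list, 171 and 326 (-0.12, -0.39 to 0.16). These 2 genes did not share the direction of the members called. Summed neutrophil levels were 17.3 cpm in corn oil, 21.9 in the library, 36.5 in the rest and 27.0 in CCl4 plus JT003.

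Resident macrophages of the liver, the Kupffer cells, are marked by scavenger and lectin receptors. Of 12 Kupffer cell genes, 5 (41.7%, against 1.79% of all genes) were called higher and 0 lower in the rest (median log2 ratio 0.83). Cd5l (11801), a secreted scavenger protein, was at 17.6 cpm in corn oil, 54.1 in the CCl4 library, 114 in the rest and 99.1 in CCl4 plus JT003 (log2 ratio 1.08, 0.99 to 1.17). Timd4 (276891), a phosphatidylserine receptor of long-lived Kupffer cells, had 18 reads in the library and 139 in the rest (log2 ratio 1.83, 1.19 to 2.70). Vsig4 (278180), a complement receptor, and Il18bp (16068), which binds interleukin-18, had 165 and 722 reads and 162 and 707 reads in library and rest (log2 ratios 1.07 and 1.07), and Marco was the remaining member called. Clec4f (51811), a lectin that defines these cells, was at 24.6 cpm in corn oil, 25.2 in the CCl4 library, 37.8 in the rest and 41.3 in CCl4 plus JT003, and with a log2 ratio of 0.58 (0.44 to 0.73) it was not called. The list summed to 457, 383, 520 and 547 cpm in corn oil, the library, the rest and CCl4 plus JT003, with the most reads from C6, a complement gene that hepatocytes also express. Among 18 genes of monocyte-derived and scar-associated macrophages, 3 (16.7%) were called higher and 0 lower (median log2 ratio 0.51). They were Ms4a7 (109225, 30 and 162 reads, log2 ratio 1.35), the elastase Mmp12 (17381, 175 and 757 reads, 1.06) and the protease Ctss (13040, 705 and 3002 reads, 1.04). Gpnmb (93695), a glycoprotein of lipid-laden macrophages, was at 0.834 cpm in corn oil, 41.1 in the CCl4 library, 75.2 in the rest and 11.2 in CCl4 plus JT003 (log2 ratio 0.87, 0.76 to 0.98). Trem2 (83433), a lipid receptor of scar-associated macrophages, was at 0.358 cpm in corn oil, 9.42 in the CCl4 library, 15.5 in the rest and 5.08 in CCl4 plus JT003 (log2 ratio 0.72). In both genes the 2 CCl4 columns were above corn oil and above CCl4 plus JT003. This list summed to 136, 424, 556 and 336 cpm in the same order, with the most reads from Spp1, which bile duct cells also express.

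Most lymphocyte genes had few reads. Of 15 T and NK cell genes compared, 3 were called higher and 0 lower. For 12 of them the count minimum was reached only in the rest, so their median says nothing on direction. Ccl5 (20304), a chemokine of T and NK cells, had 11 reads in the library and 99 in the rest (95% interval of the log2 ratio 1.22 to 3.17). Cd8a (12525), the coreceptor of cytotoxic T cells, had 5 and 51 (log2 ratio 2.04, 0.98 to 3.98), and the granzyme Gzma (14938) 1 and 30 (log2 ratio 2.78, 1.27 to 9.21). With the members below the minimum, the list was at 9.12 cpm in corn oil, 4.83 in the library, 11.4 in the rest and 10.2 in CCl4 plus JT003. Cd3e, a chain of the T cell receptor complex, had 0 reads in the library and 10 in the rest, too few for a call. Of 11 B and plasma cell genes, 1 was called higher and 0 lower (median log2 ratio 0.60, or 0.24 over the 3 with 100 or more counts), namely Jchain (16069), the joining chain of secreted antibodies (33 and 189 reads, log2 ratio 1.43). Jchain had fractional counts, and among the 10 whole-number members 0 were called. None of the 13 dendritic cell and MHC class II genes was called (median 0.11), and Cd74 (16149), the invariant chain, was at 45.5 cpm in corn oil, 63.3 in the CCl4 library, 68.9 in the rest and 93.9 in CCl4 plus JT003. Of 7 platelet genes, 1 was called higher and 0 lower (median 0.82), the integrin Itgb3 (16416, 53 and 305 reads, log2 ratio 1.45). For 4 of the 7 the count minimum was reached only in the rest, so the platelet median says nothing on direction. Sdc1 and Xbp1, which hepatocytes also express, held most reads of the B and plasma cell list (12715 and 7735 in the rest). The last 3 lists summed to 475, 144 and 7.81 cpm in the library and 492, 155 and 15.9 in the rest. The part of all these immune markers in the other differences was not tested.

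Among 16 chemokine and cytokine genes, 4 were called higher and 0 lower in the rest (median log2 ratio 0.71). The count minimum was reached only in the rest by 5 of them, of which 1, Cxcl13, was called. Over the 8 with 100 or more counts the median was 0.61 and 2 were called. Cxcl14 (57266), a chemokine of the epithelium and stroma, was at 1.79 cpm in corn oil, 4.68 in the CCl4 library, 18.4 in the rest and 4.31 in CCl4 plus JT003 (log2 ratio 1.96, 1.67 to 2.30). Cxcl1 (14825), which attracts neutrophils, was at 1.37 cpm in corn oil, 3.51 in the CCl4 library, 10.9 in the rest and 17.3 in CCl4 plus JT003 (log2 ratio 1.62, 1.27 to 2.01). Cxcl13 (55985), which attracts B cells, had 8, 5, 80 and 59 reads in the 4 columns (log2 ratio 2.66, 1.67 to 4.61). For Cxcl14 the rest was the highest column, while for Cxcl1 and Cxcl13 CCl4 plus JT003 was higher still. Ccl5 was the remaining member called. None of the 21 interferon-inducible genes was called (1 with total reads), although 19 (against 52.4% of all genes) had a log2 ratio above 0 (median 0.55, -0.27 to 0.95). The antiviral enzyme Rsad2 (58185) had the largest of these ratios, 0.95 (0.69 to 1.23), at 6.93 cpm in the library and 13.4 in the rest.

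**Figure D2:**
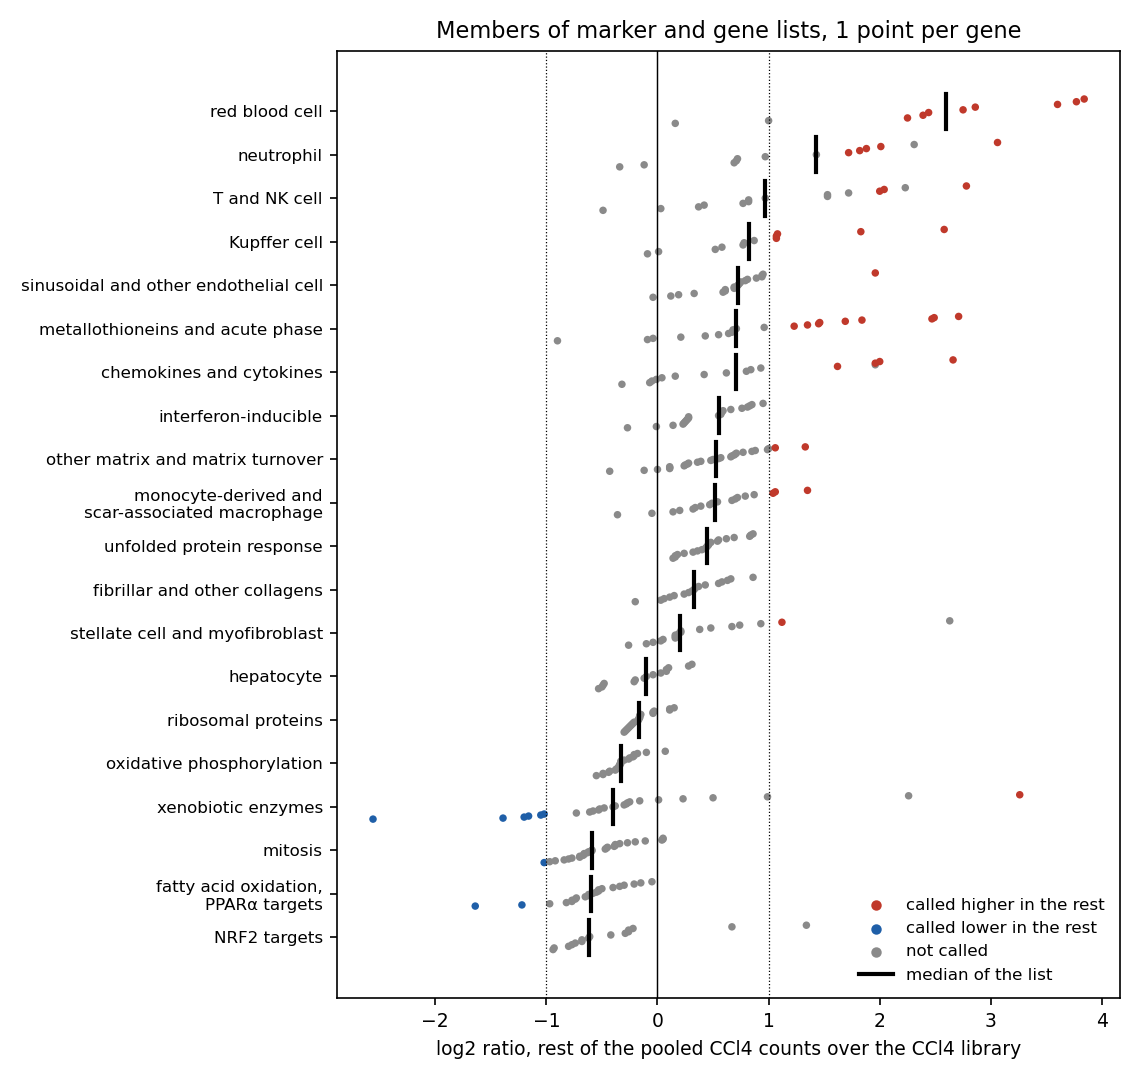
Log2 ratio of the rest over the CCl4 library (x axis) for the members of 20 of the lists (y axis), with 1 point per gene and a bar at the median of each list. Dotted lines mark log2 ratios of -1 and 1, the fold threshold of a call, and genes at 0 in the library, such as Ahsp, Cd3e and Cnn1, are drawn at their ratio with the prior count.

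Collagen genes were mostly higher in the rest by less than the threshold. None of the 17 collagen genes was called, and 16 (against 52.4% of all genes) had a log2 ratio above 0. Their median was 0.33, or 0.18 with the median of the length bin subtracted. Col1a1 (12842), alike in the 2 CCl4 columns, had a log2 ratio of 0.15 (0.09 to 0.22), and the fibrillar collagen Col3a1 (12825) was at 17.3 cpm in corn oil, 108 in the CCl4 library, 145 in the rest and 58.5 in CCl4 plus JT003 (log2 ratio 0.43, 0.36 to 0.50). The largest ratio was that of Col6a1 (12833), a microfibrillar collagen, at 15.9 cpm in the library and 28.9 in the rest (log2 ratio 0.86, 0.69 to 1.05). The summed collagen level was 1089 cpm in corn oil, 1604 in the library, 1638 in the rest and 1180 in CCl4 plus JT003. Most of it came from Col18a1 (12822), a basement membrane collagen at 998 cpm in the library and 869 in the rest, the only member with a log2 ratio below 0 (-0.20). Of 28 other matrix genes, 2 were called higher and 0 lower (median 0.53), Mmp12 and Lum (17022). That count was 4 with total reads or a prior count of 0.5, and 1 with the median of the length bin subtracted. Lum, a proteoglycan that binds collagen fibrils, was at 6.32 cpm in corn oil, 9.46 in the CCl4 library, 23.9 in the rest and 10.5 in CCl4 plus JT003 (log2 ratio 1.33, 1.11 to 1.56). Of 18 stellate cell and myofibroblast genes, 1 (5.56%, against 1.79% of all genes) was called higher and 0 lower (median 0.20). It was Rgs5 (19737), a signaling regulator of pericytes, at 15.3 cpm in corn oil, 19.8 in the CCl4 library, 43.0 in the rest and 20.6 in CCl4 plus JT003 (log2 ratio 1.12, 0.97 to 1.28). Acta2 (11475), the smooth muscle actin of activated stellate cells, was at 9.83 cpm in corn oil, 5.27 in the CCl4 library, 7.37 in the rest and 2.18 in CCl4 plus JT003 (log2 ratio 0.48, 0.16 to 0.81), below corn oil in both CCl4 columns, and was not called. The stellate list summed to 249 cpm in the library and 321 in the rest.

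Endothelial genes were mostly higher in the rest by less than the threshold. Of 20 such genes, 1 (5%, against 1.79% of all genes) was called higher and 0 lower. A log2 ratio above 0 was found in 19 of them, against 52.4% of all genes, and the median of the list was 0.72. With scaling to total reads 4 were called higher. The gene called was Vwf (22371), von Willebrand factor, at 9.83 cpm in corn oil, 2.63 in the CCl4 library, 10.4 in the rest and 4.41 in CCl4 plus JT003 (log2 ratio 1.96, 1.57 to 2.42). Stab2 (192188), a hyaluronan receptor that defines sinusoidal cells, was at 34.4 cpm in corn oil, 21.8 in the CCl4 library, 37.7 in the rest and 37.4 in CCl4 plus JT003 (log2 ratio 0.79, 0.64 to 0.95). In these 2 genes the library was the lowest of the 4 columns. The list summed to 421 cpm in corn oil, 268 in the library, 397 in the rest and 367 in CCl4 plus JT003. None of the 11 portal fibroblast and mesothelium genes and none of the 19 bile duct and injured epithelium genes was called, with medians of -0.08 and -0.26. Over the 11 bile duct genes with 100 or more counts the median was -0.05.

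Mitosis genes, low in corn oil and in CCl4 plus JT003, were mostly lower in the rest than in the library by less than the threshold. Of 28 genes, 25 (against 6918 of all 14547) had a log2 ratio below 0 and the median was -0.59, but only Plk1 was called lower and 0 higher. With the median of the length bin subtracted 2 were called lower. Plk1 (18817), a kinase that drives entry into and passage through mitosis, was at 0.715 cpm in corn oil, 27.5 in the CCl4 library, 13.6 in the rest and 1.36 in CCl4 plus JT003 (log2 ratio -1.02, -1.19 to -0.85). With scaling to total reads its ratio was -0.95, which ends the call. Cdc20 (107995), the activator of the anaphase-promoting complex, was at 1.01 cpm in corn oil, 60.0 in the CCl4 library, 30.5 in the rest and 1.69 in CCl4 plus JT003 (log2 ratio -0.97, -1.09 to -0.86). Ccnb2 (12442), a mitotic cyclin, was at 1.07 cpm in corn oil, 47.6 in the CCl4 library, 30.2 in the rest and 3.10 in CCl4 plus JT003 (log2 ratio -0.66, -0.78 to -0.54). The proliferation marker Mki67 (17345) was at 1.31 cpm in corn oil, 45.3 in the CCl4 library, 46.8 in the rest and 5.08 in CCl4 plus JT003, where the 2 CCl4 columns were alike (log2 ratio 0.05, -0.07 to 0.16). As a sum, mitosis genes were at 25.8 cpm in corn oil, 554 in the library, 377 in the rest and 52.9 in CCl4 plus JT003. None of the 25 DNA replication genes was called (median -0.16), nor any of the 16 G1 cyclins and cell cycle inhibitors (median -0.09). Of 16 p53 targets, 1 (6.25%, against 1.79% of all genes) was called higher and 0 lower. It was Btg2 (12227), an antiproliferative gene that is also an immediate early gene, at 22.6 cpm in corn oil, 32.6 in the CCl4 library, 90.9 in the rest and 34.0 in CCl4 plus JT003 (log2 ratio 1.48, 1.36 to 1.60). The median of the p53 list was -0.01, and 0.06 with scaling to total reads, where 2 were called higher.

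Since the mitosis genes had ratios mostly in 1 direction, promoters of 3 of them are shown, for the 250 bases before the start in RefSeq, build GRCm38.p6. Cdc20 is at chr4:118437344-118437593 on the minus strand, Ccnb2 at chr9:70421555-70421804 on the minus strand and Plk1 at chr7:122159185-122159434 on the plus strand. Capitals mark CCAAT boxes (CCAAT, the letters bound by NF-Y) and cell cycle homology regions (TTTGAA or TTCGAA, bound by the DREAM and MuvB complexes), on either strand, and the 2 kinds do not overlap in these promoters. Of 28 mitosis genes, 24 had a promoter in RefSeq, of which 19 (79.2%) held a CCAAT box and 10 (41.7%) a cell cycle homology region. Among all 32851 promoters the shares were 33.8% and 17.1%. Plk1, the mitosis gene called, held 0 cell cycle homology regions in this window. A match is a run of letters and does not show binding, and a part of these motifs in the ratios was not tested.
Cdc20: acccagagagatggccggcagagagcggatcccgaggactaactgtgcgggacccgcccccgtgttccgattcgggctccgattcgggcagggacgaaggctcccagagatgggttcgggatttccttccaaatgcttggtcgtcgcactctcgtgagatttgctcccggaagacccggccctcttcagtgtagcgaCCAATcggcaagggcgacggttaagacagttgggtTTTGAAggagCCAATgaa
Ccnb2: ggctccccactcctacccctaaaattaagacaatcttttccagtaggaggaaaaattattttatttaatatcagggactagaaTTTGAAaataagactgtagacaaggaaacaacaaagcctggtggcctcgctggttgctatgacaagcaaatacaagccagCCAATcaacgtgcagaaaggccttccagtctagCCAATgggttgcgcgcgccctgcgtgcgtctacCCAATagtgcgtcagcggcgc
Plk1: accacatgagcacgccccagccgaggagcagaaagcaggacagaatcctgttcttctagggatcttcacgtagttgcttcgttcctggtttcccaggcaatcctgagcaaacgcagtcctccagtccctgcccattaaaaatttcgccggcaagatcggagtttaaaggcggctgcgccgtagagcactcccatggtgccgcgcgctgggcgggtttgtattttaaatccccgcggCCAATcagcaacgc

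Hepatocyte identity genes differed little. None of the 15 hepatocyte genes, the 14 pericentral genes or the 14 periportal genes was called, with medians of -0.10, -0.15 and -0.17. Cyp2e1 (13106), the pericentral enzyme that activates CCl4, was at 9017 cpm in corn oil, 1908 in the CCl4 library, 1443 in the rest and 3766 in CCl4 plus JT003 (log2 ratio -0.40, -0.42 to -0.38). All 3 CCl4-treated columns were below corn oil, the rest furthest. Targets of PPARα, the receptor that turns on fatty acid oxidation in fasting, were mostly lower in the rest by less than the threshold. Of 22 genes, all (against 6918 of all 14547 genes compared) had a log2 ratio below 0 with the main scaling. In this list 2 were called lower and 0 higher, and the median was -0.60. Those called were Acot1 and Acot3, and among the 13 genes with whole-number values 0 were called (median -0.55). Vnn1 (22361), a pantetheinase, was at 141 cpm in corn oil, 83.1 in the CCl4 library, 42.4 in the rest and 80.2 in CCl4 plus JT003 (log2 ratio -0.97, -1.07 to -0.88), and the fatty acid hydroxylase Cyp4a10 (13117) at 4246 cpm in corn oil, 1755 in the CCl4 library, 1027 in the rest and 2254 in CCl4 plus JT003 (log2 ratio -0.77). In both genes the rest was the lowest column. The smallest difference was that of Acadm (11364), an acyl-CoA dehydrogenase (log2 ratio -0.05, -0.09 to -0.01). The list summed to 33844 cpm in corn oil, 21296 in the library, 14753 in the rest and 20308 in CCl4 plus JT003.

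Targets of NRF2, the factor that answers to oxidants and electrophiles, were mostly lower in the rest by less than the threshold. None of 16 was called, and 14 (against 6918 of all 14547 genes) had a log2 ratio below 0. The median of the list was -0.61, or -0.29 over the 9 genes with whole-number values. Gclc (14629), which limits glutathione synthesis, was at 166 cpm in corn oil, 417 in the CCl4 library, 273 in the rest and 222 in CCl4 plus JT003 (log2 ratio -0.61, -0.65 to -0.57). Gstm3 (14864), a glutathione transferase, was at 18.1 cpm in corn oil, 582 in the CCl4 library, 362 in the rest and 110 in CCl4 plus JT003 (log2 ratio -0.68, -0.72 to -0.65). In both genes the library was the highest column and the rest came next, with the reads of Gstm3 shared with close paralogs. Hmox1 (15368), heme oxygenase, was at 9.35 cpm in corn oil, 21.6 in the CCl4 library, 34.3 in the rest and 31.9 in CCl4 plus JT003 and went the other way (log2 ratio 0.67, 0.52 to 0.83). So did Slc7a11 (26570), a cystine transporter, with 11 reads in the library and 62 in the rest (log2 ratio 1.34, 0.51 to 2.52), past the fold threshold but not called. Summed, the NRF2 targets were at 2981, 7539, 4366 and 3906 cpm in corn oil, the library, the rest and CCl4 plus JT003. Of 25 genes of xenobiotic metabolism, 1 (4%) was called higher (Sult1e1) and 6 (24%) lower (median -0.40). Of all genes, 1.79% were called higher and 0.296% lower. The count minimum was reached only in the rest by 3 of the 25, of which 1, Sult1e1, was called. Among the 7 with whole-number values 1 was called higher and 0 lower (median -0.28). Beside Cyp2a4, Cyp2a5, Cyp2b10 and Cyp2c38, the lower ones were Cyp2b9 (13094, 113 and 114 reads, log2 ratio -1.02) and Cyp2c37 (13096, 1238 and 1234 reads, -1.05). With scaling to total reads these 2 had -0.95 and -0.98 and were not called. Genes of these P450 families share reads, so each member's own value is uncertain. Cyp3a11 (13112), which had the most reads of the list, was at 3820 cpm in corn oil, 6862 in the CCl4 library, 5568 in the rest and 7124 in CCl4 plus JT003 (log2 ratio -0.30).

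For other metabolic lists the medians were smaller. None of 23 oxidative phosphorylation genes was called, but 22 (against 6918 of all 14547 genes) had a log2 ratio below 0 (median -0.33). Their summed level was 6161 cpm in corn oil, 5827 in the library, 4612 in the rest and 5386 in CCl4 plus JT003. Uqcrc1 (22273), a core subunit of the cytochrome bc1 complex, had the lowest ratio of these genes, -0.55 (-0.60 to -0.50). None of 23 ribosomal protein genes was called (median -0.17), and 20 had a log2 ratio below 0. No gene was called among 17 of fatty acid synthesis (median -0.32), 20 of cholesterol synthesis (median 0.13) and 15 of gluconeogenesis and glycogen (median -0.09). Of 15 genes of bile acid synthesis and transport, 1 was called higher and 0 lower (median -0.21). It was Slco1a1 (28248), a transporter of organic anions, at 259 cpm in corn oil, 27.7 in the CCl4 library, 64.3 in the rest and 40.2 in CCl4 plus JT003 (log2 ratio 1.21, 1.08 to 1.35). Cyp7a1 (13122), the rate-limiting enzyme of bile acid synthesis, was at 29.5 cpm in the library and 29.7 in the rest (log2 ratio 0.01, -0.13 to 0.15).

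The log2 ratio moved with transcript length. Over 5 groups of genes from the shortest to the longest transcripts its median was -0.12, -0.04, 0.03, 0.08 and 0.13, and for the CCl4 library over corn oil it was -0.05, -0.01, 0.02, 0.06 and 0.06. The first group held transcripts of 65 to 1559 bases and the last those of 4574 to 83437. Oxidative phosphorylation and ribosomal protein genes have short transcripts. With the median of the length bin subtracted, their medians became -0.21 and -0.01, while those of the unfolded protein response, the PPARα targets and the mitosis genes were 0.47, -0.58 and -0.59. The cause of the trend was not tested.

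Genes of the unfolded protein response, by which the endoplasmic reticulum makes more chaperones when proteins misfold, were higher in the rest by less than the threshold. All 21 had a log2 ratio above 0, from 0.14 to 0.86 (median 0.45), and none was called. Of all genes 52.4% had a ratio above 0. Hspa5 (14828), the chaperone BiP, was at 567 cpm in corn oil, 389 in the CCl4 library, 693 in the rest and 281 in CCl4 plus JT003 (log2 ratio 0.83, 0.80 to 0.87). Sdf2l1 (64136), a cofactor of BiP, was at 15.8 cpm in corn oil, 12.6 in the CCl4 library, 22.9 in the rest and 9.15 in CCl4 plus JT003 (log2 ratio 0.86, 0.67 to 1.07). In both genes the rest was the highest column and CCl4 plus JT003 the lowest. The list summed to 4212 cpm in corn oil, 3444 in the library, 4785 in the rest and 3016 in CCl4 plus JT003. Of 15 genes of the integrated stress response, 2 were called higher and 0 lower (median 0.47). Over the 12 with 100 or more counts the median was 0.26 and 1 was called. The summed level went the other way, at 1484 cpm in corn oil, 1240 in the library, 1080 in the rest and 822 in CCl4 plus JT003. Atf5 (107503), the member with the most reads, was lower in the rest (log2 ratio -0.31, -0.33 to -0.28). Asns (27053), asparagine synthetase, was at 35.2 cpm in corn oil, 6.93 in the CCl4 library, 16.5 in the rest and 1.69 in CCl4 plus JT003 (log2 ratio 1.25, 0.99 to 1.53). Chac1 (69065), which degrades glutathione, had 16 reads in the library and 86 in the rest (log2 ratio 1.31, 0.60 to 2.25). Atf4 (11911), the transcription factor of this response, was at 91.1 and 93.8 cpm (log2 ratio 0.04, -0.04 to 0.12). None of 15 heat shock genes was called (median -0.24, or -0.01 over the 11 with whole-number values).

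As the ratios of the unfolded protein response genes all lay on 1 side, the promoter of Hspa5 is shown, at chr2:34771840-34772089 on the plus strand of GRCm38.p6, for the 250 bases before its start in RefSeq. Capitals mark an endoplasmic reticulum stress element, CCAAT, 9 bases of any kind (N) and CCACG on either strand, which contains a CCAAT box. Further CCAAT boxes in this promoter are left in lower case. The element was found in 9 of the 19 genes of the list with a promoter (47.4%) and in 37 of 32851 promoters (0.113%). Here too a match does not show binding, and its part in the ratios was not tested.
Hspa5: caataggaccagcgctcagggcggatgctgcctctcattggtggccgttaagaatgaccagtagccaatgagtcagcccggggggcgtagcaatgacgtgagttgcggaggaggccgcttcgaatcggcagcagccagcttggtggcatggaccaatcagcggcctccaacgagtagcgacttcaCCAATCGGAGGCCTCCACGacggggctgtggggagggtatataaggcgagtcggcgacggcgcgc

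Growth hormone and sex steroids set the level of many liver genes in male and female mice. Of 14 male-biased genes, 2 were called higher and 0 lower in the rest (median log2 ratio 0.34), namely Slco1a1 and Selenbp2 (20342), a selenium-binding protein, at 360 cpm in corn oil, 52.3 in the CCl4 library, 109 in the rest and 44.3 in CCl4 plus JT003 (log2 ratio 1.05, 0.96 to 1.15). Of 10 female-biased genes, 1 was called higher and 3 lower. Their median was 0.31, but -1.02 over the 5 genes with 100 or more counts and 1.30 over the 4 with whole-number values, so the list had no settled direction. The lower ones were Cyp2a4, Cyp2b9 and Acot3, and the higher one was Cyp17a1 (13074), a steroid hydroxylase and lyase, at 38.5 cpm in corn oil, 8.78 in the CCl4 library, 40.8 in the rest and 20.9 in CCl4 plus JT003 (log2 ratio 2.21, 1.99 to 2.44). Of 12 major urinary protein genes, 4 were called higher and 0 lower. The count minimum was reached only in the rest by 1 of them, Mup9. At 100 or more counts 3 of 10 were called higher. Mup7 (100041658), which encodes a pheromone carrier, was at 9151 cpm in corn oil, 18.1 in the CCl4 library, 42.7 in the rest and 23.2 in CCl4 plus JT003 (log2 ratio 1.24, 1.08 to 1.41). Mup9 (100038948) had 5801, 0, 45 and 0 reads in the 4 columns, at least 7.24-fold higher in the rest than in the library. Mup1 (17840) had 15676, 45, 387 and 138 reads and Mup12 (100039054) 14555, 56, 263 and 54 (log2 ratios 2.02 and 1.16). Compared with corn oil, all 3 CCl4-treated columns were low for these 4 genes, and their near-identical copies make single values uncertain. The median of the list was -0.03, and 0.04 with scaling to total reads. Of 23 genes of the IGF axis and hepatokines, 1 was called higher and 1 lower (median -0.11). Igfbp1 (16006), an insulin-like growth factor binding protein that rises in fasting and injury, was at 135 cpm in corn oil, 183 in the CCl4 library, 508 in the rest and 104 in CCl4 plus JT003 (log2 ratio 1.48, 1.43 to 1.53). Of the 4 columns, the rest was highest and CCl4 plus JT003 lowest. Socs2 was the lower one. Igf1 (16000), insulin-like growth factor, was at 368 cpm in the library and 412 in the rest (log2 ratio 0.16, 0.12 to 0.20).

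**Figure D3:**
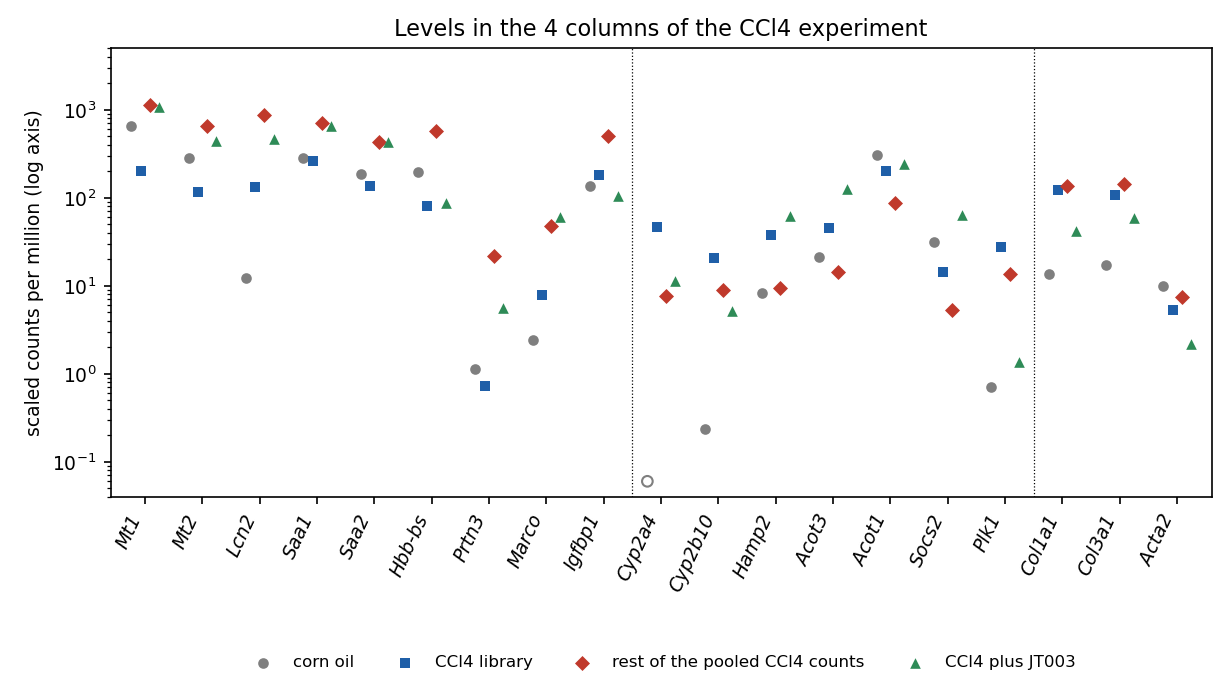
Scaled cpm on a log axis (y axis) of 19 genes (x axis) in corn oil, the CCl4 library, the rest and CCl4 plus JT003, 1 point per column. Dotted lines separate genes higher in the rest, such as Mt1 at 200 in the library and 1127 in the rest, genes lower in it, and the fibrosis genes Col1a1, Col3a1 and Acta2, and a hollow marker at the bottom is a count of 0.

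No source used here gives the clock time of sacrifice. Of 11 clock genes of the Dbp phase, 1 was called higher and 0 lower (median 0.17), Ciart (229599), a repressor of the clock, with 23 reads in the library and 137 in the rest (log2 ratio 1.47, 0.88 to 2.23). Dbp (13170), an output factor with a strong daily rhythm, was at 49.1 cpm in corn oil, 4.68 in the CCl4 library, 5.16 in the rest and 93.5 in CCl4 plus JT003 (log2 ratio 0.14, -0.21 to 0.50). None of 6 clock genes of the Bmal1 phase was called (median -0.31). Arntl (11865), which encodes Bmal1, was at 8.46 cpm in corn oil, 18.8 in the CCl4 library, 18.5 in the rest and 1.65 in CCl4 plus JT003 (log2 ratio -0.03, -0.20 to 0.15). For both Dbp and Arntl the 2 CCl4 columns lay close together, and CCl4 plus JT003 lay far from them. Of 15 immediate early genes, 2 were called higher and 0 lower (median 0.03), Btg2 and the nuclear receptor Nr4a1 (15370, 30 and 142 reads, log2 ratio 1.16). Of 14 hypoxia genes, 1 (7.14%, against 1.79% of all genes) was called higher and 0 lower (median 0.33). It was Ankrd37 (654824), a target of HIF, with 10 and 115 reads (log2 ratio 2.33, 1.54 to 3.57).

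None of the 14 genes of the adiponectin receptors and AMPK was called (median -0.14). Adipor1 (72674) was at 122 cpm in corn oil, 141 in the CCl4 library, 123 in the rest and 114 in CCl4 plus JT003 (log2 ratio -0.19, -0.26 to -0.13), and Adipor2 (68465), the receptor with the higher read count in liver, at 473 cpm in corn oil, 499 in the CCl4 library, 373 in the rest and 376 in CCl4 plus JT003 (log2 ratio -0.42, -0.46 to -0.38). Markers of other tissues were also compared. The adipocyte list summed to 240 cpm in corn oil, 67.1 in the library, 73.5 in the rest and 52.5 in CCl4 plus JT003. Of 6 adipocyte genes compared, 1 was called higher and 0 lower (median 0.13, or -0.25 over the 5 with 100 or more counts), Fabp4 (11770), a fatty acid binding protein that endothelial cells and macrophages also make, at 11.6 cpm in corn oil, 4.24 in the CCl4 library, 15.3 in the rest and 5.71 in CCl4 plus JT003 (log2 ratio 1.84, 1.53 to 2.19). Of the 13 genes of pancreatic acinar cells, 10 were not listed or had no read in either column, 2 were compared and 0 called (median 0.44). Of 11 skeletal muscle genes, 1 was compared and not called (log2 ratio -0.16). Of 6 Y chromosome genes 4 were compared, all with reads in both columns, and 0 were called (median 0.36). Xist (213742), of the inactive X chromosome of females, had 18, 4, 20 and 18 reads in the 4 columns (log2 ratio 1.05, -0.31 to 3.28) and was not called. In all, 57 of the 260 genes called higher and 10 of the 43 called lower were members of a list.

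Values of some further lists moved with the setting. With whole-number values only, 4 of 10 acute phase genes, 4 of 5 red blood cell genes and 0 of 5 male-biased, 0 of 5 platelet and 0 of 12 bile acid genes were called higher. Medians under that setting were -0.01 for DNA replication, -0.24 for gluconeogenesis and glycogen and 0.31 for the Dbp phase of the clock. At 100 or more counts, 2 of 8 chemokine genes and 5 of 6 red blood cell genes were called higher. With the median of the length bin subtracted, 2 monocyte and scar macrophage genes were called higher, and the medians of the dendritic cell and DNA replication genes were 0.24 and -0.06. Red blood cell, neutrophil and platelet lists had 4, 5 and 4 members that reached 10 counts only in the rest, of which 4, 2 and 0 were called higher.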

How the data were processed

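The files used here hold counts of 6 libraries of mouse liver RNA, 1 per condition, and the 3 libraries of the CCl4 model were analysed. Per the submitters' processing notes, reads were aligned with HISAT and Bowtie2 against the build mm9 and the authors made an expected count per gene with RSEM, which splits reads shared by several genes. The rest was computed from the expected count of the CCl4 library and the pooled CCl4 column of the authors' table, as deposited, which by its values sums expected counts of several libraries. Values were rounded to whole numbers. The 7 other expression columns of the comparison tables were not used, nor their fold changes and p values, which hold the authors' DEGseq results. Transcript lengths came from the gene tables of the libraries.

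Columns were scaled with TMM factors of edgeR 4.0.16 in R 4.3.3. Genes with 10 or more counts in either column were tested with a exact conditional binomial test and Benjamini-Hochberg adjustment. Python 3.11.15, numpy 2.4.6, scipy 1.17.1, pandas 2.3.3 and matplotlib 3.10.9 were used, and the scripts were tested on simulated data. Ratios against a count of 0 are given as bounds at 3 counts. The named genes were the 15 called with the highest and the 15 with the lowest log2 ratio, the 10 with the largest difference in cpm and members of 50 lists (30 of pathways, 20 of cell types). Members and lists were chosen with earlier results of these data known, and other genes are marked as chosen after values were seen. Some members that the rule names are not reported here. Alternatives changed the scaling (total reads, TMM over 2 columns, DESeq2 1.42.0), the count minimum, the thresholds, the prior count, the test, the depth of the rest, the handling of negative differences and fractional counts, the use of the whole pool, and transcript length. Promoters came from RefSeq, build GRCm38.p6, by symbol.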

Additional observations from a re-analysis of the deposited data

How the results depend on the processing

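Of the 303 genes called, 260 were higher and 43 lower in the rest. Without a threshold on the log2 ratio 3661 genes were called, 1482 higher and 2179 lower, so that the share called higher fell to 40.5%. The fold threshold alone gave 808 (714 higher, 94 lower), and an adjusted p under 0.05 gave 558 (485 higher, 73 lower). With the edgeR exact test and an assumed coefficient of variation of 0.2, 22 genes were called (21 higher, 1 lower). With 0.4 it called 0 (0 higher, 0 lower), while 149 genes had an unadjusted p under 0.05 in that edgeR exact test and 4 an adjusted p under 0.05, against 597 and 58 with a coefficient of 0.2 and 6965 and 6063 in the exact conditional binomial test. Genes whose values were whole in both columns, 66% of those compared, gave 179 (157 higher, 22 lower), where fewer genes were tested. The whole pool against the library, which it contains, gave 93 (91 higher, 2 lower). At 100 or more counts in either column the 201 higher ones stayed within 1.5 times and 26 were lower. Every other alternative left the counts within 1.5 times, from 253 with the rest scaled down to the total of the library to 346 with total reads, which called 91.6% higher and moved the median of all genes to 0.09. DESeq2 size factors called 83.3% higher. Subtracting the median of the length bin, added with the data already seen, gave 273 (233 higher, 40 lower). Of 93 named genes, of which 57 could be compared with whole-number values, 81 at 100 or more counts and 89 with length, none compared reversed. 3 were no longer called with total reads, 64 and 83 with coefficients of 0.2 and 0.4, 36 with the whole pool, 4 with the rest scaled down and 3 with the length bin subtracted. Where a count moved, the cause was not tested. No paired analysis was possible because each condition had 1 library with counts of its own in the files used here. Intervals cover counting error alone, and the number of livers in the rest, their spread and the libraries summed in the pool are unknown. Depth limited genes with few reads, of which 14 called higher had none in the library.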
